A study of Mus musculus with 10 samples.

Results

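The genes described here move iron and haem, the iron-carrying pigment of haemoglobin and many enzymes, into, through and out of cells, together with Lcn2, the lipocalin that binds bacterial iron carriers. The list held 9 names, Hmox1, Hmox2, Tfrc, Trf, Fth1, Ftl1, Slc40a1, Cp and Lcn2, and a probe set (the group of array probes that gives 1 value) was taken where its annotated symbol was exactly 1 of them. This gave 20 of the 22690 probe sets, for 7 of the 9 names, among 12393 genes named on the arrays. Trf (transferrin) and Ftl1 (ferritin light chain) were matched on 1 and 3 probe sets that also carry other symbols, so they are not analysed here. Of the 20 probe sets, 3 of Tfrc are of the array's control type and stood outside the test.

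The study measured RNA of the mouse optic nerve head, the tissue where retinal axons leave the eye, on single-colour arrays after a short rise in intraocular pressure (IOP). In the high IOP group the right eye was held at 30 mmHg for 1 h by a saline-fed glass micropipette in the anterior chamber, and the nerve head was collected on day 3. Control nerve heads came from the left eyes, which had no operation. All 10 mice were C57Bl/6 males, 6 to 8 weeks old. Each of the 10 arrays (5 per group) held a pool of 2 nerve heads, so the spread between arrays is a spread between pools. Both groups came from the same mice, a right and a left eye each, but the labels do not say which arrays share mice, and the tests treat the 10 arrays as independent. Pressure, the operation and the side of the body went together in this design and cannot be told apart.

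As background, cells take up transferrin-bound iron through the transferrin receptor, store it inside ferritin shells and release it through ferroportin, with a ferroxidase such as ceruloplasmin oxidising it on the way out. Haem oxygenases open the haem ring and free its iron, and the inducible form is a widely used marker of oxidative stress. In the nervous system, iron is needed by myelin-forming oligodendrocytes, while reactive astrocytes are a known source of lipocalin-2.

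Array medians lay between 414 and 475 signal units. The array of high IOP replicate 1 stood apart: its mean correlation with the others was 0.974, against 0.986 to 0.989 for the other 9, and its Gapdh 3' to 5' signal ratio, a sign of RNA quality, was 2.07, against 1.53 to 1.73. Results are therefore also given without it. The astrocyte marker Gfap and the myelin marker Mbp were bright. Gfap lay between 10943 and 12631 in high IOP and between 10644 and 11791 in control arrays. Mbp lay between 13604 and 14514 in high IOP and between 13490 and 15433 in control arrays. Other markers of these cells were dimmer or varied more. Slc1a2 of astrocytes had 135 to 230 in high IOP and 124 to 269 in control. Of the myelin markers, Gjc3 had 62.7 to 447 in high IOP and 251 to 584 in control. Mog had 1876 to 6622 in high IOP and 4635 to 7989 in control. The 13 measured markers of pigment cells and retinal pigment epithelium summed to 30966.5 to 47551.9 in high IOP and 26654.3 to 62073.7 in control. How much adjoining tissue each pool held was not tested. Fewer cells of a type and less RNA per cell cannot be told apart in pooled tissue.

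The stretches of 250 bases before the annotated starts of Lcn2 and Tfrc are shown because Lcn2 varied most between arrays and Tfrc followed the myelin markers, as described further on. They are RefSeq sequences on GRCm38.p6, chr2:32387740-32387989 on the minus strand for Lcn2 and chr16:32608646-32608895 on the plus strand for the first of the Tfrc starts, both written 5' to 3' along the gene. Capitals mark every match to the motifs searched.
Lcn2: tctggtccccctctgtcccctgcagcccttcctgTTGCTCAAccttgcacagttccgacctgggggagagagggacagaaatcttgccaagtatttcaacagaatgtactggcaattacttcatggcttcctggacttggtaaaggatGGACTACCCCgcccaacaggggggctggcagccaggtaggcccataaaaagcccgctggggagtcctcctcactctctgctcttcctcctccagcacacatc
Tfrc: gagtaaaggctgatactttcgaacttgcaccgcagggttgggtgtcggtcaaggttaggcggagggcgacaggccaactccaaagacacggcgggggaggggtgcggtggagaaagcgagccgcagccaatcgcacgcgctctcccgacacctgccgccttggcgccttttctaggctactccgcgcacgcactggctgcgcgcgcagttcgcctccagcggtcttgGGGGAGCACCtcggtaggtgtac

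The motifs were GGG and CC with any 5 bases between them (NF-kappaB), TTGCNNAA (C/EBP), TACGTG (hypoxia response element core) and TGACNNNGC (antioxidant response element core) on both strands, and TATAAA on the gene's strand. The Lcn2 stretch held a C/EBP match, TTGCTCAA, 216 to 209 bases before the start and an NF-kappaB match on the opposite strand 102 to 93 bases before it, and the matches did not overlap. The Tfrc stretch held 1 NF-kappaB match, GGGGAGCACC, 23 to 14 bases before the start. The stretch before a second annotated Tfrc start, chr16:32608872-32609121, overlaps the first and is not printed. It held 3 NF-kappaB matches, 1 of them the same letters in the overlap, and a hypoxia core match, TACGTG, 229 to 224 bases before that start. Among 32851 RefSeq promoter entries of the same length, 45.8% held the NF-kappaB motif, 9.56% the C/EBP motif, 2.72% the hypoxia core, 10.2% the antioxidant core and 7.59% the TATA letters. A match describes letters only, and no binding was measured.

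Hmox1, the inducible haem oxygenase, was read by 1 probe set (1448239_at). Values are given for replicates 1 to 5 of each group, as deposited signal units. Hmox1 had 60.5, 148, 240, 211 and 264 in high IOP pools, against 391, 193, 196, 181 and 160 in control pools. The extremes lay in the first replicate of each group, with the lowest value of all in high IOP and the highest in control, and the other 8 arrays overlapped. Its mean was 185 ± 81.9 in high IOP and 224 ± 94.5 in control (SD, n = 5 each). The log2 fold change was -0.32 with a 95% interval of -1.09 to 0.45 (limma adjusted p = 0.846), so neither a fall to 0.469 of the control level nor an increase to 1.37 times it lay outside the interval. Without high IOP replicate 1 the log2 fold change was -0.0069. The fold changes here are on the scale log2(signal + 16), which understates the change of dim probe sets.

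Hmox2, the constitutive haem oxygenase, had 1872, 2429, 2408, 2534 and 2489 in high IOP pools, against 2513, 2205, 2752, 2569 and 2148 in control pools. All high IOP arrays but the first lay inside the control range. The log2 fold change was -0.06 (interval -0.30 to 0.18, limma adjusted p = 0.917), and 0.02 without high IOP replicate 1. Hmox1 spanned 6.47-fold over the 10 arrays and Hmox2 1.47-fold. The within-group SD of Hmox1, 0.64 on the log2 scale, was above that of 97.5% of all probe sets, and that of Hmox2 above 29.3%.

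Tfrc encodes the transferrin receptor, which brings transferrin-bound iron into the cell. Its brightest probe set, 1452661_at, had 2492, 4218, 3895, 3198 and 3847 in high IOP pools, against 4214, 5379, 4712, 3923 and 3299 in control pools. Only 2 high IOP arrays lay below the lowest control array, and none lay above the highest. The mean was 3530 ± 688 in high IOP and 4305 ± 788 in control (SD, n = 5 each), a log2 fold change of -0.29 (interval -0.66 to 0.08). That was the lowest unadjusted p of the 17 tested probe sets, 0.110 in the limma fit, with an adjusted p of 0.837. Without high IOP replicate 1 the value was -0.17.

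The other Tfrc probe sets were dim and did not share 1 direction. Probe set 1422966_a_at had 63.8 to 128 in high IOP and 69.8 to 146 in control (log2 fold change -0.09), and 1422967_a_at had 57.5 to 82.4 in high IOP and 41.2 to 72.9 in control (0.21). The 3 control-type probe sets, which target the 3', middle and 5' parts of the transcript, gave -0.04, 0.13 and -0.10 in a fit that included control probe sets, a fit chosen after seeing the data. The brightest probe set correlated across the 10 arrays with the others at r = 0.03 to 0.54. The deposited values therefore hold 1 bright reading of Tfrc and 5 dim ones that do not follow it closely.

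Fth1, the ferritin heavy chain that oxidises and stores iron, gave the steadiest readings. Probe set 1448771_a_at had 16069, 16560, 15960, 15698 and 15211 in high IOP pools, against 16357, 16646, 15531, 15922 and 15647 in control pools. Its values spanned 1.09-fold, and only 0.499% of all probe sets had a smaller within-group SD. The highest value anywhere in the data was 20168, and whether readings this bright still scale with RNA was not tested. The log2 fold change was -0.01 (interval -0.16 to 0.14), and the other probe set, 1427021_s_at, gave -0.04 (interval -0.20 to 0.12). The suffix of the second, _s, marks by the maker's convention probes that can match several transcripts, and Fth1 has processed copies in the genome whose share of the signal was not tested. Both intervals lay inside a 1.5-fold difference in either direction.

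Slc40a1 encodes ferroportin, the exporter that lets iron out of cells. Probe set 1417061_at had 291, 378, 739, 457 and 575 in high IOP pools, against 637, 436, 499, 586 and 423 in control pools. The high IOP arrays held both the lowest values and the highest value, so their range enclosed that of the control arrays. The log2 fold change was -0.13 (interval -0.62 to 0.36, limma adjusted p = 0.905), and 0.03 without high IOP replicate 1. The dimmer probe set, 1448566_at, had 26.6 to 72.2 in high IOP and 37.0 to 81.0 in control (-0.23, interval -0.73 to 0.27). The pair correlated at r = 0.727 across the 10 arrays.

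Cp, ceruloplasmin, is a copper ferroxidase that works beside ferroportin and is made by astrocytes as a membrane-anchored form. Probe set 1417494_a_at had 8059, 6882, 7597, 8008 and 7804 in high IOP pools, against 7843, 6146, 6836, 7596 and 8655 in control pools. The control range enclosed every high IOP value. The log2 fold change was 0.06 (interval -0.17 to 0.28, limma adjusted p = 0.910). Over the 7 Cp probe sets the fold changes ran from -0.0036 to 0.08, 5 of them above 0, and every interval lay inside a 1.5-fold difference. High IOP means of the 7 ran from 4773 to 7670 and control means from 4623 to 7415. They correlated with 1417494_a_at at r = 0.504 to 0.970.

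Lcn2 encodes lipocalin-2, a secreted protein that neutrophils carry and reactive astrocytes make. Probe set 1427747_a_at had 6630, 2196, 2238, 1861 and 3147 in high IOP pools, against 6974, 1005, 1260, 1719 and 3222 in control pools. The first replicate of each group stood far above the rest of its group, and the control range again enclosed the high IOP range. The mean was 3214 ± 1968 in high IOP and 2836 ± 2468 in control (SD, n = 5 each). The log2 fold change was 0.39 (interval -0.75 to 1.53, limma adjusted p = 0.871), which runs from 0.595 to 2.88 times the control level. It was 0.09 without high IOP replicate 1 and 0.81 without control replicate 1. Lcn2 spanned 6.94-fold over the arrays, and its within-group SD of 0.95 exceeded that of 99.5% of all probe sets. Neutrophil markers varied beside it: S100a8 had 124 to 1923 in high IOP and 143 to 2495 in control, and S100a9 20.1 to 1783 in high IOP and 54.3 to 2861 in control. Among granule genes, Ltf and Mpo stayed below 42 and 26 on every array, while Camp had 206 to 383 in high IOP and 162 to 332 in control. The sum over the 10 measured neutrophil markers was 778 to 4450 in high IOP and 665 to 6003 in control, and their part in the Lcn2 values was not tested.

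**Figure D1:**
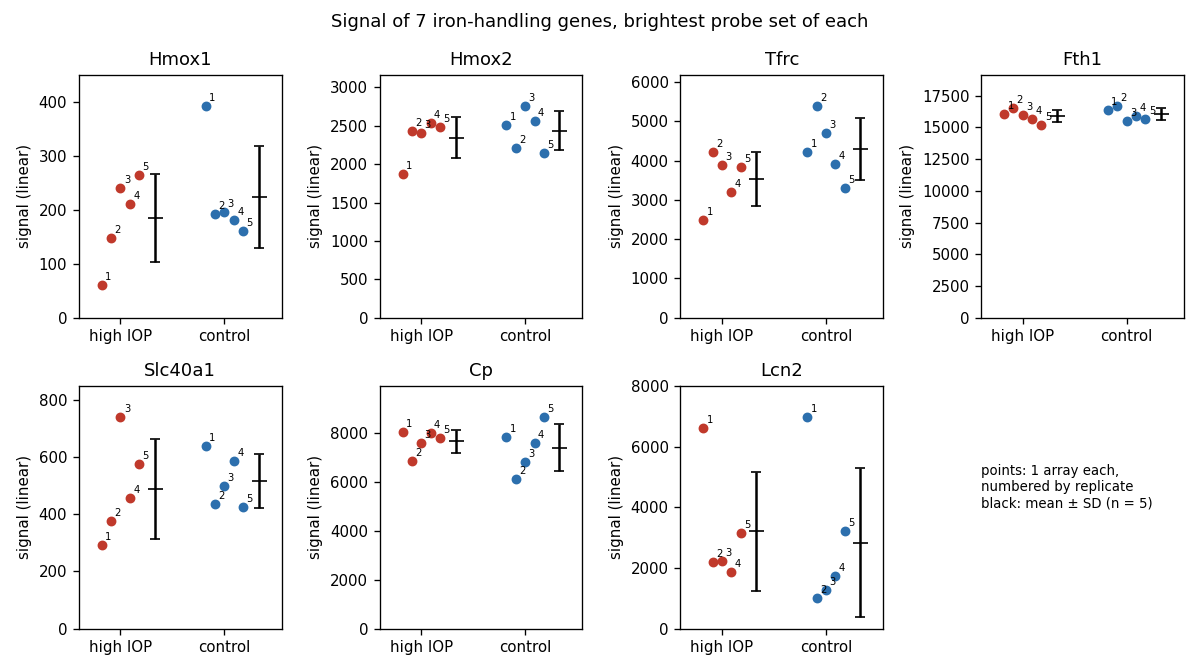
Signal of the brightest probe set of each of the 7 genes on every array (linear axes from 0, deposited signal units), with high IOP pools left of control pools. Points are arrays numbered by replicate, and black marks are the mean ± SD (n = 5); the groups overlap for every gene, and Lcn2 and Hmox1 spread over 6.94-fold and 6.47-fold while Fth1 spans 1.09-fold.

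Across the 17 tested probe sets the comparison asks whether a brief pressure rise was followed, 3 days later, by a change in iron handling at the nerve head. By limma with Benjamini-Hochberg adjustment over 22626 probe sets, 0 of the 17 passed an adjusted p of 0.05, and 0% of all probe sets did. At an unadjusted p under 0.05 the count was again 0 of 17, beside 4.44% (1004) of all probe sets. In 0 of the 17 were the high IOP and control values free of overlap, beside 0.663% of all probe sets. The high IOP mean was higher in 7 and lower in 10, with a median log2 fold change of -0.0036, and the median over all probe sets was -0.02. These shares are near the background, and the adjusted p-values ran from 0.837 to 0.997.

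The precision differed between genes. For 12 of the 17 probe sets the 95% interval lay inside a 1.5-fold difference and for 15 inside a 2-fold difference, beside 75.8% and 95.6% of all probe sets. The 12 included both Fth1 probe sets, all 7 of Cp and that of Hmox2. Hmox1 and Lcn2 were the 2 with intervals beyond 2-fold, downward for Hmox1 and upward for Lcn2. Differences of that size in those directions lay inside the intervals from 5 arrays per group.

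**Figure D2:**
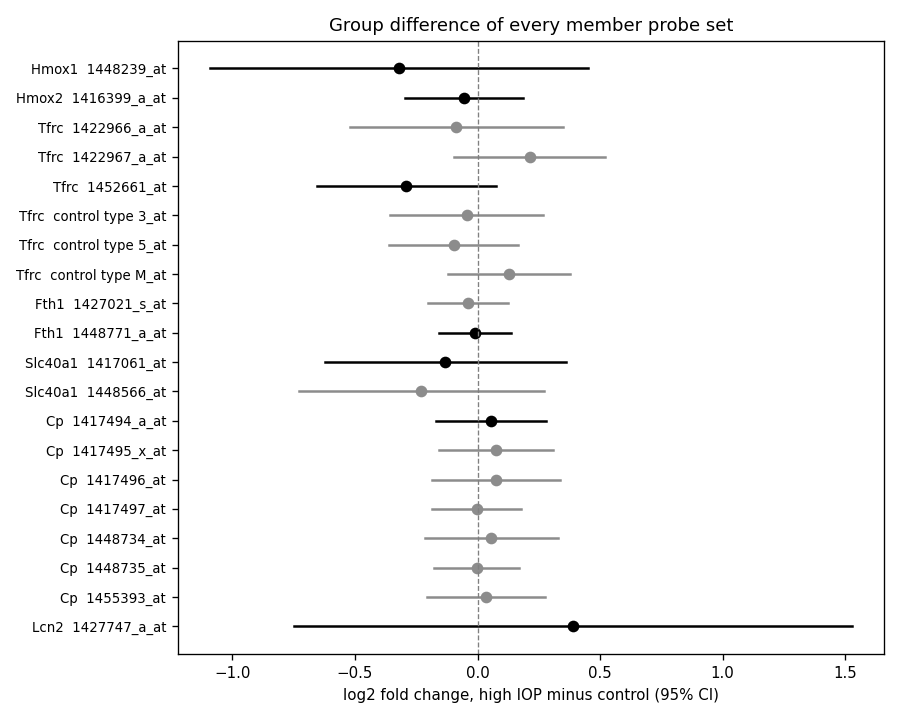
Log2 fold change (high IOP minus control, scale log2(signal + 16)) of the 17 tested probe sets and the 3 control-type Tfrc probe sets, with 95% intervals from limma; the brightest probe set of each gene is black and the others grey. Every interval includes 0; those of Fth1 and Cp are narrow, and that of Lcn2 runs from -0.75 to 1.53.

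The brightest probe set of each gene was next set against marker scores of 8 cell types and the Gapdh ratio. A score is the mean log2 deviation of the list's genes from their own means over the arrays. This made 63 relations over 10 arrays, tested by permutation (100000 resamples, two-sided) and adjusted over the 63 by the Benjamini-Hochberg method. Of them 15 had an unadjusted Pearson p under 0.05 and 1 an adjusted p under it. With 5 arrays a group is too small for a correlation within it, so deviations from the group means are given instead.

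Tfrc followed the myelin score. Pearson's r was 0.942 (permutation p = 3e-05, adjusted 0.00189) and Spearman's rho 0.915 (permutation p = 0.0006, adjusted 0.0189). The r was 0.894 without the 2 arrays farthest from the median score, high IOP replicate 1 and control replicate 2. Over deviations from the group means it was 0.935 (permutation test, adjusted p = 0.00819). Leaving out 1 array at a time gave 0.921 to 0.956, and without high IOP replicate 1 the permutation test's adjusted p was 0.0517.

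The myelin scores were -0.94, 0.18, 0.13, -0.17 and 0.08 in high IOP pools, against -0.02, 0.41, 0.41, 0.09 and -0.17 in control pools. High IOP replicate 1, the lowest for Tfrc, was also by far the lowest for myelin, and control replicates 2 and 3, the highest for Tfrc, were the highest. Of the 14 measured myelin genes 13 were lower and 1 was higher in high IOP, with a median log2 fold change of -0.31, and 0 passed the limma test at an adjusted or unadjusted p of 0.05. Their summed signal was 65791 to 94636 in high IOP and 80970 to 102000 in control. With the myelin score as a covariate, the Tfrc log2 fold change was -0.08 in place of -0.29, and with the Gapdh ratio it was -0.06. Without high IOP replicate 1 the median of the myelin list was -0.08, still with 13 genes lower and 1 higher.

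The relation belonged to 1 probe set. The 2 other tested Tfrc probe sets had r of 0.18 and 0.22 with the myelin score, and the control-type ones 0.33, 0.54 and 0.07. With the mean over the probe sets of each gene, r was 0.697 and the permutation test's adjusted p 0.192. The Gapdh ratio also moved with both: r was -0.81 with Tfrc (rho -0.794; permutation test, adjusted p = 0.0735) and -0.89 with the myelin score. These were -0.61 and -0.50 without high IOP replicate 1. Tfrc with the ratio gave -0.34 without the 2 farthest arrays, high IOP replicates 1 and 4, and -0.83 without control replicate 4 (permutation test, adjusted p = 0.0284). Leaving out high IOP replicate 1 left the 9 arrays with Gapdh ratios of 1.53 to 1.73. There the r of Tfrc with the myelin score was the 0.921 given above. The part of RNA quality in this relation was not tested.

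**Figure D3:**
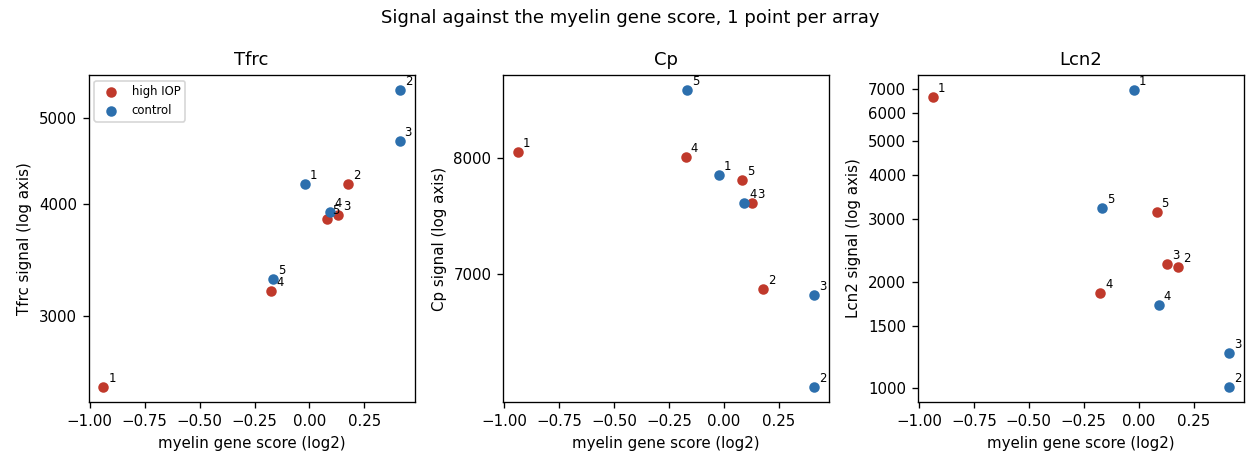
Signal of Tfrc, Cp and Lcn2 (brightest probe set, log axes) against the myelin marker score of the same array (log2), with high IOP arrays red and control arrays blue, numbered by replicate. Tfrc climbs with the score (r = 0.942), Cp and Lcn2 decline, and high IOP replicate 1 lies alone at a score of -0.94.

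Cp ran the other way. Its rho with the myelin score was -0.952 (permutation p = 0.00012, adjusted 0.00756), while r was -0.673 (permutation test, adjusted p = 0.183) and -0.893 without the 2 farthest arrays. The gap between r and rho came with high IOP replicate 1, which joined the lowest myelin score to a Cp signal of 8059, below only control replicate 5 (8655). Without it r was -0.914 (permutation test, adjusted p = 0.00504). All 7 Cp probe sets had a negative r over 10 arrays, from -0.28 to -0.67. Tfrc and Cp, which share these arrays and their RNA, had r = -0.799 with each other.

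Lcn2 had r = -0.738 with the myelin score (rho -0.709; permutation test, adjusted p = 0.0978) and -0.491 without the 2 farthest arrays. It had r = 0.697 with the neutrophil score (rho 0.661; permutation test, adjusted p = 0.183), and 0.702 without the 2 arrays farthest on that score. Against the astrocyte score r was -0.661. The pigment score gave r = 0.574, and 0.203 without the 2 arrays farthest on it. The endothelial score gave r = 0.374, and 0.140 without its 2 farthest arrays. Dropping high IOP replicate 1 gave r of -0.635 with the myelin and -0.543 with the astrocyte score. It was then 0.673 with the neutrophil, 0.703 with the pigment and 0.667 with the endothelial score. The neutrophil and pigment scores had r = 0.657 with each other. Without control replicate 1 the r of Lcn2 with the myelin score was -0.881 (permutation test, adjusted p = 0.0479). With the myelin score as a covariate the Lcn2 log2 fold change was -0.14, and with the Gapdh ratio -0.09, opposite in sign to the 0.39 without covariates.

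The closest relations of the other members did not pass the adjustment over 10 arrays, though 3 of them passed under another treatment of the values. Slc40a1 had r = 0.792 with the endothelial score (rho 0.794; permutation test, adjusted p = 0.0939), and 0.585 without the 2 farthest arrays. Over deviations from the group means it was 0.850 (permutation test, adjusted p = 0.0344). The dimmer Slc40a1 probe set had r = 0.511 with the endothelial score. With the pigment score 1417061_at had r = 0.543, and 0.688 without high IOP replicate 1. Fth1 had r = 0.788 with the red cell score (rho 0.794; permutation test, adjusted p = 0.0939), and 0.484 without the 2 farthest arrays. After quantile normalization that r was 0.924 (permutation test, adjusted p = 0.00756). The other Fth1 probe set had r = 0.437 with the red cell score. Of the 12 names of that score 6 were measured, and only Hbb-b2 was bright. The rest were dim, at most 86.2 on any array (Slc4a1, control), and counted equally in the score. Hmox2 had r = 0.849 with the microglial score (rho 0.770; permutation test, adjusted p = 0.0735), and 0.449 without high IOP replicate 1 and control replicate 3. Over deviations from the group means it was 0.854 (permutation test, adjusted p = 0.0246). Hmox1 was closest to the Gapdh ratio, at r = -0.737 (rho -0.018; permutation test, adjusted p = 0.203), which became 0.05 without high IOP replicate 1. Its r was 0.699 with the microglial and 0.673 with the endothelial score (rho 0.455 and 0.782; permutation test, adjusted p = 0.183 for both), and 0.243 and 0.753 without that array. Without control replicate 2 the r of Hmox1 with the endothelial score was 0.793 (permutation test, adjusted p = 0.0464). For the pigment score the r of Hmox1 was 0.489, and 0.770 without high IOP replicate 1. It was -0.10 without the 2 arrays farthest on the pigment score. Hmox1 and Slc40a1 had r = 0.844 with each other, as a description over arrays that share their RNA. With the dimmer Slc40a1 probe set Hmox1 had r = 0.338. Slc40a1 (1417061_at) had r = 0.442 with the microglial score, and -0.10 without high IOP replicate 1.

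**Figure D4:**
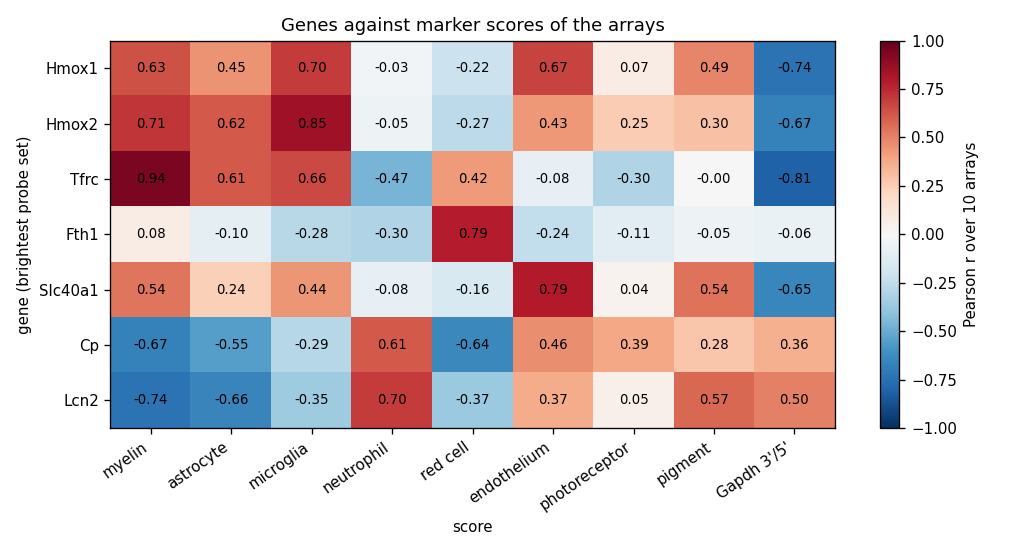
Pearson's r over 10 arrays between the brightest probe set of each gene (down the page) and 8 marker scores and the Gapdh 3' to 5' ratio (across). The strongest cell is Tfrc with the myelin score (0.942), the only relation past the adjusted Pearson threshold.

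The wider pathway lists held no gene past limma's adjusted threshold, and several of their values rested on high IOP replicate 1. Of the 23 names of iron uptake, storage and export, 21 were measured: 10 were higher and 11 lower in high IOP, 0 passed the limma test at an adjusted p of 0.05 and 0 at an unadjusted one, and the median log2 fold change was -0.02, that of all probe sets. Without high IOP replicate 1, 15 were higher and 6 lower, with a median of 0.02 beside -0.0077 for all probe sets. The 4 with the lowest p were Scara5, a ferritin receptor (0.37, with -0.02 on another probe set), Ncoa4, which sends ferritin to be degraded (-0.45), Slc11a2, the divalent metal transporter (-0.17, with 0.15 on another probe set), and Cybrd1, a ferric reductase (0.28). Ncoa4 averaged 2610 ± 846 in high IOP and 3356 ± 256 in control, and Scara5 943 ± 152 in high IOP and 744 ± 223 in control (SD, n = 5 each). Without that array Ncoa4 gave -0.17 and Scara5 0.30.

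Iron sensing and the hepcidin pathway had 6 of 17 measured genes higher and 11 lower (22 names), with a median of -0.12. Smad7, an inhibitor of BMP signalling, averaged 1279 ± 724 in high IOP and 1798 ± 333 in control, a log2 fold change of -0.75 (interval -1.76 to 0.26). The BMP receptors Acvr1 and Bmpr1a gave -0.65 and -0.28, with 0.06 on another Bmpr1a probe set, and Ireb2, an iron regulatory protein that binds ferritin and transferrin receptor mRNA, gave -0.33. Without high IOP replicate 1 these were -0.26 for Smad7, -0.17 for Acvr1, -0.11 for Bmpr1a and -0.08 for Ireb2, and the median of the list was -0.07. Again 0 of the 17 reached an unadjusted p of 0.05 in limma or an adjusted one.

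Haem synthesis, with 12 of 13 names measured, had 7 higher and 5 lower and a median of 0.01, led by Alas1, the first enzyme of the pathway, at 0.19, Cpox at -0.35 (-0.12 without high IOP replicate 1), Abcb10 at -0.15 (0.45 on another probe set) and Alad at 0.11. Haem breakdown and transport, with 19 of 20 measured, had 12 higher and 7 lower and a median of 0.04. Its lowest p belonged to Blvrb, a biliverdin reductase acting after haem oxygenase, with 1693 ± 68.5 in high IOP and 1481 ± 160 in control (log2 fold change 0.20, interval -0.00086 to 0.40, limma adjusted p = 0.837), and 0.19 without high IOP replicate 1. Mafg and Maff, small partners of the factors that act on the Hmox1 gene, gave 0.23 and 0.35, and the haem-binding Hebp1 -0.35 (0.14, 0.21 and -0.17 without that array). Another Mafg probe set gave 0.00028 over all arrays. Iron-sulfur cluster assembly, with 11 of 18 measured, had 6 higher and 5 lower and a median of 0.04, with Nubp1 at 0.26, Nfu1 at -0.12, Isca1 at -0.17 and Nfs1, the cysteine desulfurase, at 0.13 (-0.31 on another probe set). In these 3 lists 0 genes passed limma at an adjusted or an unadjusted p of 0.05.

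Among the lipocalin family and the partners of lipocalin-2, 16 of 22 names were measured, 7 higher and 9 lower, with a median of -0.03 and 0 past an adjusted p of 0.05 in limma. One of them, Lcn5, had an unadjusted p under 0.05 (0.0140, limma adjusted p = 0.837), at 24.8 ± 7.16 in high IOP and 13.8 ± 4.97 in control, readings at the dim end of the array. Rbp4, the retinol carrier, gave 0.22 and the dim Apom and Lcn3 gave 0.15 and -0.18, with -0.05 on another Apom probe set.

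Genes whose pattern was most like that of each member were ranked by Pearson's r of the deviations from the group means, over 10 arrays and among 9233 genes with a mean signal of at least 100. For Tfrc the closest were Sv2a (0.972), Spock1 (0.964) and Scamp5 (0.963). For Slc40a1 they were Tmem11 (0.974), Cntn1 (0.971) and Sbds (0.955), and for Hmox1 Snrnp70 (0.968), Hey1 (0.967) and Sdcbp (0.958). Lcn2 was nearest to Gpc3 (0.968), St3gal1 (0.968) and Lmna (0.948). Cp was nearest to Pkdcc (0.962), Nab2 (0.924) and Blvrb (0.915), the last a gene of the haem breakdown list. Hmox2 was nearest to Nop53 (0.962), Havcr2 (0.946) and Idnk (0.940), and Fth1 to Tfcp2l1 (0.941), Ube2e3 (0.925) and Cdc25b (0.896). The best of so many genes over so few arrays is high for every member, so these are descriptions.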

How the data were processed

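Total RNA was extracted, amplified with the Ovation system and biotin-labelled, per the labels' protocols. The authors deposited 1 table of linear probe set intensity for 10 arrays. How probe sets were summarised, background-corrected and scaled is not stated in the labels or the table. Detection calls were not used. Precision is limited by 5 arrays per group.

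Values were transformed to log2(signal + 16). Both groups were compared with limma 3.58.1 (R 4.3.3; lmFit and eBayes), high IOP minus control, without covariates, over 22626 probe sets outside 64 controls, with Benjamini-Hochberg adjustment. The fit was tested on simulated data. Symbols came from the platform annotation: 20380 probe sets had 1, 691 several and 1555 none. All 20 member probe sets matched a RefSeq gene by Entrez identifier. Genes with several probe sets are represented by the brightest over all arrays in scores, correlations and lists. Correlations used NumPy 2.4.6, with ranks from SciPy 1.17.1. The text names every member, the 4 genes of each pathway list with the lowest p and the 3 genes most like each member. Members and lists were chosen with earlier results of these data known. Alternatives were other scalings, pseudocounts of 1 and 64, filters on dim probe sets, covariates, the replicate block and leaving out each array. P-values measure the spread between pools, which the labels treat as biological replicates.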

Additional observations from a re-analysis of the deposited data

Results flagged for a closer look

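Of 40 sets of 5 values (20 probe sets in 2 groups), 3 held an array far from the other 4, with chance expected to mark about 1 set in 20. Hmox1 in control replicate 1 was 391, far above its group. Hmox2 in high IOP replicate 1 was 1872, far below its group, on the array that also stood apart in its correlation with the rest. Cp probe set 1417495_x_at in high IOP replicate 2 was 6210, far below the other high IOP arrays, while control replicate 2 read 5668.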

How the results depend on the processing

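No member passed the limma adjusted threshold under any setting tried, and the lowest adjusted p of a member was 0.542. The count of probe sets at an unadjusted p under 0.05 was 1004 as reported, 495 with 1 probe set per gene, 495 with the mean over the probe sets of a gene, 449 without the dimmest 50% and 612 with the Gapdh ratio as covariate, and the first 3 of these fits held fewer features. The cause of the drop with the Gapdh ratio was not tested. Leaving out 1 array gave 739 to 2017, the highest without high IOP replicate 3. The count of correlations past the threshold was 1 as reported, 2 after quantile normalization, 3 over deviations from the group means, 0 with the mean over probe sets, and 1 to 6 leaving out 1 array (6 without control replicate 2). The sign of some members turned. With the myelin score as covariate, the log2 fold change was 0.0337 for Hmox2, 0.0273 for Slc40a1 1417061_at, -0.0194 for Cp 1417494_a_at, -0.00010 for Cp 1417496_at and -0.141 for Lcn2. With the Gapdh ratio it was 0.175 for Hmox1, 0.0657 for Hmox2, 0.155 for Slc40a1 1417061_at and -0.0865 for Lcn2. With the photoreceptor score it was 0.0176 for Tfrc 1422966_a_at and 0.0016 for Cp 1417497_at, and with array weights 0.0016 for Hmox2. After quantile normalization it was 0.0046 and 0.0103 for Fth1 1427021_s_at and 1448771_a_at, and 0.024 and 0.0365 for Cp 1417497_at and 1448735_at. With equal array medians it was 0.0164 for Fth1 1448771_a_at, 0.0237 for Cp 1417497_at and 0.0247 for Cp 1448735_at. Leaving out 1 array gave -0.10 to 0.0224 for Hmox2, -0.198 to 0.0456 for Tfrc 1422966_a_at, -0.0258 to 0.0048 for Fth1 1448771_a_at, -0.294 to 0.0299 for Slc40a1 1417061_at, and for Cp -0.0090 to 0.11 (1417494_a_at), -0.0406 to 0.0270 (1417497_at), -0.0250 to 0.122 (1448734_at), -0.0300 to 0.0336 (1448735_at) and -0.0316 to 0.0909 (1455393_at). The cause of these turns was not tested. Replicate numbers are shared between the groups, but the labels do not say that they mark the same mice, so they were not taken to pair the arrays. Over deviations from the group means, same-numbered arrays correlated at -0.05, 0.18, -0.08, 0.13 and -0.06. Of the 5 high IOP arrays, 2 matched their own number best. These values cannot show whether same-numbered arrays share mice. With a replicate block 0 probe sets passed the adjusted threshold (886 unadjusted as a fixed block, 841 as a random one) and the Hmox1 and Lcn2 log2 fold changes were -0.32 and 0.39 (limma adjusted p = 0.898 and 0.880 as a fixed block). Quantile normalization moved the median log2 fold change of all probe sets to 0.0091, and equal medians to 0.0079.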

Other observations

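Photoreceptor markers, a sign of adjoining retina in a dissection, were higher in high IOP for 17 of 19 genes and lower for 2, with a median log2 fold change of 0.25, and 0 passed limma at an adjusted or an unadjusted p of 0.05. Without high IOP replicate 1 the median was 0.54. Their summed signal was 3266 to 14896 in high IOP and 2349 to 15143 in control, a 6.45-fold span over the 10 arrays. Of the 14 endothelial markers 8 were higher and 6 lower, with 3 higher at an unadjusted p under 0.05 and 0 after limma's adjustment, and 12 higher and 2 lower without high IOP replicate 1. Next after Sv2a, Spock1 and Scamp5 among the genes most like Tfrc came Arap2 (r = 0.956 over 10 arrays), Sh3gl3 (0.955) and Dip2b (0.953). They were followed by Gltp (0.951), Olig2 (0.951), a transcription factor of the oligodendrocyte lineage, and Adamts4 (0.951), a protease made by oligodendrocytes. Gltp, Olig2 and Adamts4 were singled out after their values were seen.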
